A study of Homo sapiens with 12 samples.

Results

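The genes described here were 53 interferon-stimulated genes, a list of symbols written from general knowledge of the interferon response and looked up by symbol in the deposited table. All 53 were among its 59276 features, and 45 of them passed the filter for testing, among 11939 features that did. Total RNA was sequenced from MM1S, an established human multiple myeloma cell line, in 12 libraries that the labels call H1 to H12. The groups were day 0 (H1 to H3), and 2 days (H4 to H6), 3 days (H7 to H9) and 5 days (H10 to H12) of NGI-1, an inhibitor of the oligosaccharyltransferase (OST) complex, which attaches N-glycans to proteins. The methods of the study give a concentration of 10 μM. The labels name NGI-1 as the treatment of the day 0 libraries as well. These were taken as untreated cells because the study calls them so, and the labels do not say whether they received the solvent. Every group had 3 libraries of the same line, and untreated cells were labelled for day 0 only, so time in culture and time in NGI-1 cannot be told apart. Nothing in the labels says that the 3 libraries of a group came from separate cultures, so p-values here reflect the spread between the libraries at hand, which may be technical.

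Type I interferons signal through the receptor chains IFNAR1 and IFNAR2 and the kinases JAK1 and TYK2 to STAT proteins. With IRF9 these form ISGF3, a complex that binds a promoter element called the ISRE and turns on interferon-stimulated genes. Their products sense foreign nucleic acid, block viral entry, cut viral RNA or attach the ubiquitin-like protein ISG15 to other proteins. Many of these genes are also on at a low level in cells that no virus has infected, and B-lineage cells carry interferon receptors.

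The letters of this element were found in most promoters of the members. In the RefSeq promoters on GRCh38.p14, which run from 250 bases before to 50 bases after each transcription start, 43 of the 53 members had an entry. An ISRE core, GAAANNGAAA on either strand, was found in 32 of these 43 promoters (74.4%), against 1195 of all 27305 genes with a promoter entry (4.38%). A core with a spacer of 1 base, GAAANGAAA, was found in 19 of the 43 (44.2%) and in 3.87% of all genes. The letters TTCNNNGAA of GAS, an element of the interferon-γ response, were found in 12 of the 43 (27.9%) and in 9.38% of all genes. A match is a description of the letters and not of binding, and the motifs can overlap. The members without an entry were IFIT2, IFITM2, MX2, OAS2, OASL, LY6E, USP18, DHX58, TRIM22 and ZBP1. The 130 bases before the start follow for 6 members, in lower case with each GAAANNGAAA core in capitals. IFI27, IFI6 and ISG15 are shown for their large rises at day 2, IFIT1 for its later rise, OAS1 as a gene that rose with no GAAANNGAAA in its promoter, and TRIM25 as a gene that did not rise. They lie at chr14:94110606-94110735 (plus strand), chr1:27672193-27672322 (minus strand), chr1:1013367-1013496 (plus strand), chr10:89392493-89392622 (plus strand), chr12:112906832-112906961 (plus strand) and chr17:56914050-56914179 (minus strand). IFI27 has 2 starts in this table, and the stretch before the upstream one is given.
IFI27: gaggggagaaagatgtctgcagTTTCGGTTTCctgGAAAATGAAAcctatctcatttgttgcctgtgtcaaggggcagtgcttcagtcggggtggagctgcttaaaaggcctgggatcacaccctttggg
IFI6: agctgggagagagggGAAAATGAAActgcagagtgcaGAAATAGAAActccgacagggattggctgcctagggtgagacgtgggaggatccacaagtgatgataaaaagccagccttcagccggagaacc
ISG15: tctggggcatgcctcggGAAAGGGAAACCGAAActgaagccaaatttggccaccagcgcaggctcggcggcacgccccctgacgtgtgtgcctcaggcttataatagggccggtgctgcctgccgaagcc
IFIT1: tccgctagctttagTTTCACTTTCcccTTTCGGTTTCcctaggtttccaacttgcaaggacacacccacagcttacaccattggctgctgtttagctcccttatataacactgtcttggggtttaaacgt
OAS1: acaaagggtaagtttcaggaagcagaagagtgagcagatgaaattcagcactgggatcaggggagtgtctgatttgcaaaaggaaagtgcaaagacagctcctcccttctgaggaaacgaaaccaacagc
TRIM25: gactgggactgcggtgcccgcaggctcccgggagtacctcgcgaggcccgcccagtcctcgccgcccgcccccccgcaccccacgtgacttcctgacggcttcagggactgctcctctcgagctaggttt
IFI27 and IFIT1 each carried 2 separate cores and ISG15 carried 2 that overlap. IFI6 carried 3, of which the one that begins 156 bases before the start lies outside the stretch shown. The OAS1 promoter held no GAAANNGAAA but 1 GAAANGAAA, which lies in lower case near the end of the stretch shown. It also held 1 TTCNNNGAA, which lies outside that stretch. The TRIM25 promoter held no GAAANNGAAA and 1 GAAANGAAA, on the other strand, which begins 3 bases before the start and runs past the stretch shown. Among the members with an entry that were called higher at day 2, 25 of 33 held the GAAANNGAAA core (75.8%), and so did 2 of the 4 tested members with an entry that were not called higher on any day.

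The values are TPM, a length-corrected share of all transcripts in a library, so they can be compared between genes and a rise of some transcripts lowers the share of others. TPM keeps no read counts. More than 60 M read pairs were obtained per library, according to the labels, but the counting error behind a single value is unknown, and precision was read from the spread between libraries. A member was called higher or lower where the limma test gave an adjusted p (Benjamini-Hochberg) below 0.05 and the log2 fold change exceeded 0.5 in either direction. Fold changes are on the log2(TPM + 1) scale, which understates changes of genes near 0. Across all tested features the median log2 fold change against the untreated libraries was -0.185 at day 2, -0.732 at day 3 and -0.989 at day 5. Ribosomal protein genes held 28.15% to 29.2% of all TPM in the untreated libraries and 47.52% to 49.14% at day 5, and their part in the members' changes was not tested. Rescaling, where used here, divides each library by 1 factor that sets the median change of 5433 well-expressed features to 0. The factor of H8 was nearer to the untreated libraries than those of H7 and H9, and that of H12 nearer than those of H10 and H11, so the results were also computed without H8 and H12.

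Most of the members rose within 2 days of NGI-1 and then declined as a share of the transcripts, without all returning to the untreated level. The summed TPM of the 53 genes was 1053 ± 31.6 (SD, n = 3) in the untreated libraries, 3897 ± 96 at day 2, 3576 ± 131 at day 3 and 2412 ± 188 at day 5. IFI27 alone made up 2.09% of this sum in untreated cells, 28.3% at day 2, 40.7% at day 3 and 44.01% at day 5. Without IFI27 the sum was 1031, 2794, 2121 and 1353 TPM. After rescaling the sum was instead highest at day 3, at 702.7, 3057, 4356 and 3766 for the 4 groups in the same order. Without IFI27 the rescaled sum was 688, 2192, 2579 and 2105. In bulk RNA, a change in the share of responding cells and a change within each cell cannot be told apart.

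At day 2, 39 of the 45 tested members were called higher and none lower, where 8.04% of all tested features were called higher and 23.2% lower. At day 3, 30 were called higher and 3 lower, against 7.59% and 61.5% of all tested features. At day 5, 23 were called higher and 8 lower, against 7.73% and 69.8%. The median log2 fold change of the tested members was 1.28, 0.98 and 0.56 on these days. After rescaling, 40, 41 and 39 members were called higher and 0, 1 and 1 lower, where 12.9%, 23.9% and 27.5% of all features were called higher. These 3 comparisons share the same untreated libraries.

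A member that passed the filter through the treated libraries alone had to differ, so the same counts were made over the 34 members with at least 1 TPM in every untreated library. Of these, 29 were called higher at day 2 (85.3%), 21 at day 3 (61.8%) and 13 at day 5 (38.2%), and 0, 3 and 8 were called lower. Among the 10979 features chosen in the same way, 6.5%, 5.67% and 5.66% were called higher on the 3 days. The median log2 fold change of the 34 members was 1.27, 0.80 and 0.34, and that of the 10979 features was -0.22, -0.81 and -1.08. Members that passed through treated libraries alone were IFI44, IFI44L, IFIT1, IFIT2, XAF1, USP18, CMPK2, PARP9, DTX3L and RTP4. The filter favoured calls of these members as higher, so those calls are descriptive. RSAD2 reached 1 TPM in no untreated library but H2.

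**Figure D1:**
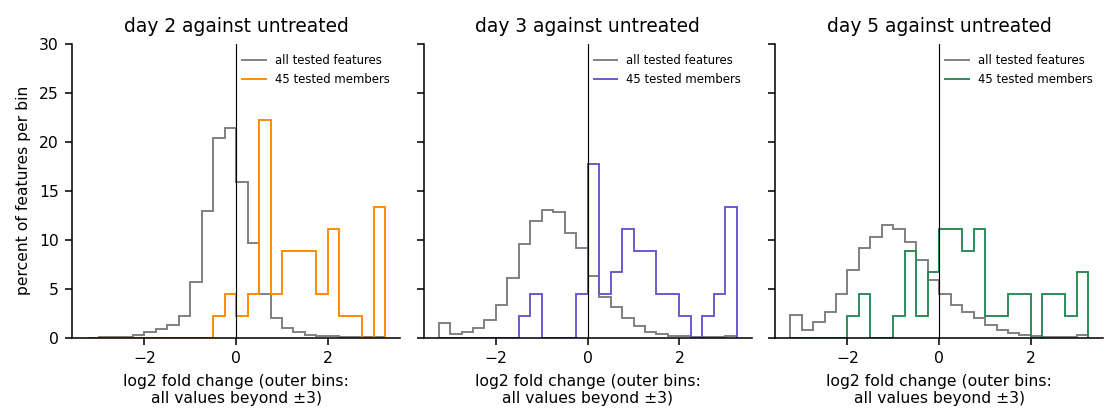
Share of features in each bin of log2 fold change (bins of 0.25, y axis in percent) against the untreated libraries, for all 11939 tested features (grey) and the 45 tested interferon-stimulated genes (colour), on the log2(TPM + 1) scale without rescaling. The distribution of all features moved to the left from a median of -0.185 at day 2 to -0.989 at day 5, while the median of the members stayed above 0, at 1.28 and 0.56.

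**Figure D2:**
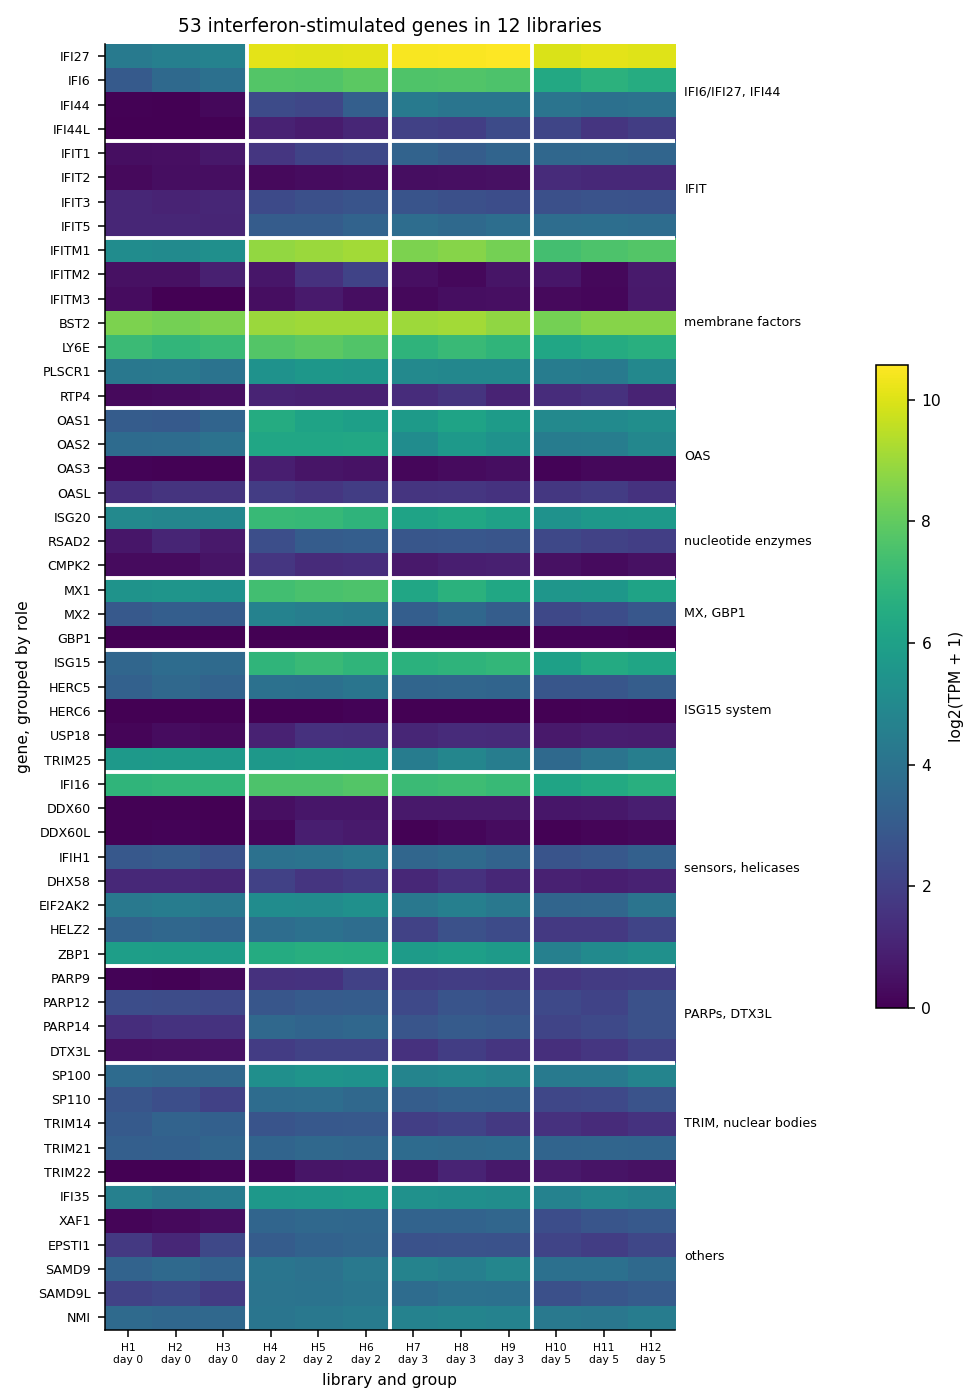
Level of each of the 53 genes in each of the 12 libraries, as log2(TPM + 1) in colour, with genes grouped by role and white lines between groups of libraries and roles. The columns of days 2 to 5 are brighter than day 0 in most rows, and IFI27 reached the highest values, while IFITM2, IFITM3, OAS3, HERC6, DDX60, DDX60L, TRIM22 and GBP1 stayed dark in nearly all libraries.

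All 4 genes of the IFI6 and IFI44 groups were called higher on all 3 days, where 8.04%, 7.59% and 7.73% of all tested features were. IFI44 and IFI44L passed the filter through treated libraries alone and so had to differ. IFI27 and IFI6 encode small hydrophobic proteins of mitochondrial and other inner membranes. IFI27 stood at 18.8, 22.4 and 24.7 TPM in the untreated libraries, 1119, 1071 and 1119.9 TPM at day 2, 1423, 1433 and 1509 TPM at day 3 and 1010.1, 1102 and 1065 TPM at day 5. Each treated library was thus far above each untreated one, and day 3 was the highest group. IFI27 rose 50.2-fold, 66.2-fold and 48.2-fold in mean TPM, with log2 fold changes of 5.59 at day 2, 5.99 at day 3 and 5.54 at day 5 (SE 0.085, adjusted p = 3.5e-14, 1.4e-14 and 4.05e-14). IFI6 stood at 6.89, 11.3 and 13.8 TPM in the untreated libraries, 211, 204 and 240.2 TPM at day 2, 203, 207 and 195 TPM at day 3 and 81.5, 108 and 92.8 TPM at day 5. IFI6 too was above the untreated libraries throughout, but its day 5 values were under those of days 2 and 3. For IFI6 the log2 fold changes were 4.28 at day 2, 4.17 at day 3 and 3.06 at day 5 (SE 0.18, adjusted p = 1.89e-09, 1.93e-10 and 2.12e-09), and day 5 was lower than day 3 by a log2 fold change of -1.1 (adjusted p = 0.000993). IFI44, a cytoplasmic protein with antiviral activity, started from almost nothing. IFI44 stood at 0.0401, 0 and 0.157 TPM in the untreated libraries, 4.297, 3.81 and 8.11 TPM at day 2, 19.3, 16.04 and 16.4 TPM at day 3 and 15.8, 13.95 and 14.7 TPM at day 5. Its day 3 and day 5 libraries were all above day 2, and the log2 fold changes were 2.53 at day 2, 4.098 at day 3 and 3.89 at day 5 (SE 0.195, adjusted p = 3.64e-07, 5.88e-10 and 5.19e-10). Day 3 was higher than day 2 by 1.57 (adjusted p = 2.07e-05). Its neighbour and paralog IFI44L had the same order at a lower level, with group means of 0.0148 TPM untreated, 0.981 TPM at day 2, 3.43 TPM at day 3 and 2.86 TPM at day 5. The pair lies on chromosome 1, IFI44L at chr1:78619922-78646145 and IFI44 at chr1:78649796-78664078 (GRCh38, GENCODE 29).

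The IFIT genes, whose products bind foreign RNA and curb its translation, kept their level to day 5. They lie together on chromosome 10, from IFIT2 at chr10:89283694-89309276 through IFIT3 and IFIT1 to IFIT5 at chr10:89414586-89421001, in the same annotation. IFIT1 stood at 0.311, 0.352 and 0.601 TPM in the untreated libraries, 2.22, 3.38 and 3.85 TPM at day 2, 9.22, 7.597 and 9.57 TPM at day 3 and 10.4, 10.8 and 9.77 TPM at day 5. IFIT1 had no overlap between untreated and treated libraries, and days 3 and 5 lay above day 2. IFIT1 passed the filter through treated libraries alone. For IFIT1 the log2 fold changes were 1.53 at day 2, 2.79 at day 3 and 2.997 at day 5 (SE 0.16, adjusted p = 5.42e-06, 3.91e-09 and 8.8e-10). IFIT5 stood at 1.22, 1.19 and 1.16 TPM in the untreated libraries, 7.42, 7.42 and 9.37 TPM at day 2, 12.8, 11.1 and 13.1 TPM at day 3 and 12.5, 13.1 and 12.3 TPM at day 5. IFIT5 had the same order, with log2 fold changes of 2.04 at day 2, 2.599 at day 3 and 2.63 at day 5 (SE 0.12, adjusted p = 3.43e-08, 3.56e-10 and 1.84e-10). IFIT3 had group means of 1.16 TPM untreated, 4.91 TPM at day 2, 5.09 TPM at day 3 and 5.23 TPM at day 5, nearly level over the treated days, with log2 fold changes of 1.45, 1.495 and 1.53. IFIT2 was the exception of the family at day 2. IFIT2 stood at 0.219, 0.2995 and 0.308 TPM in the untreated libraries, 0.212, 0.283 and 0.294 TPM at day 2, 0.309, 0.3598 and 0.384 TPM at day 3 and 1.46, 1.35 and 1.297 TPM at day 5. The untreated and day 2 libraries overlapped, and the day 5 libraries stood above all others. Day 5 was higher than untreated by a log2 fold change of 0.89 (adjusted p = 2.67e-06) and higher than day 3 by 0.81 (adjusted p = 0.000272), while day 2 gave -0.01 (adjusted p = 0.924). IFIT2 passed the filter only through its day 5 libraries and so had to be higher there. It shares 65 exon bases with LIPA on the opposite strand, and whether reads were counted by strand is not given in the sources used here.

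Of the 7 membrane factors, IFITM1 rose most. IFITM proteins block fusion of viruses with cell membranes. IFITM1 stood at 34.4, 32.3 and 37.6 TPM in the untreated libraries, 454, 506 and 539.9 TPM at day 2, 351, 396 and 326 TPM at day 3 and 167, 195 and 209.5 TPM at day 5. All treated libraries were above all untreated ones and the groups fell in order from day 2 to day 5. For IFITM1 the log2 fold changes were 3.81 at day 2, 3.32 at day 3 and 2.42 at day 5 (SE 0.105, adjusted p = 2.52e-11, 9.01e-12 and 1.31e-10), and the mean at day 2 was 14.4 times the untreated mean. Its neighbours IFITM2 and IFITM3 reached no more than 3.41 and 0.676 TPM in any library. In GENCODE 29, IFITM1 and IFITM2 share 351 exon bases on the same strand, so the split of reads between IFITM1 and IFITM2 is uncertain. BST2, or tetherin, holds budding viruses at the cell surface and was the most abundant member before treatment. BST2 stood at 350.5, 323 and 369 TPM in the untreated libraries, 502, 536 and 533 TPM at day 2, 523, 552 and 451 TPM at day 3 and 331, 399 and 395 TPM at day 5. Days 2 and 3 were above the untreated libraries and day 5 overlapped them. For BST2 the log2 fold changes were 0.59 at day 2, 0.55 at day 3 and 0.11 at day 5 (SE 0.093, adjusted p = 0.000192, 0.000103 and 0.293). At day 3 BST2 was close to the threshold and was no longer called without H2 or H8, at 0.493 and 0.484. LY6E, a GPI-anchored protein that restricts coronavirus entry, moved in both directions. LY6E stood at 145, 122 and 141 TPM in the untreated libraries, 212, 241 and 207 TPM at day 2, 116, 144 and 119.8 TPM at day 3 and 75.3, 90.2 and 100.3 TPM at day 5. It was above the untreated libraries at day 2, overlapped them at day 3 and was below them at day 5. For LY6E the log2 fold changes were 0.69 at day 2, -0.11 at day 3 and -0.62 at day 5 (SE 0.12, adjusted p = 0.000393, 0.421 and 0.000232), and after rescaling they were 0.92, 0.76 and 0.598, so the fall at day 5 held only on the deposited scale. PLSCR1, a phospholipid scramblase, is also induced by interferon. PLSCR1 stood at 17.9, 18.5 and 15.3 TPM in the untreated libraries, 40.8, 47.2 and 44.2 TPM at day 2, 29.9, 28.2 and 28.9 TPM at day 3 and 20.4, 19.2 and 29.2 TPM at day 5. It was above the untreated libraries on all days and H12 was the highest of day 5. For PLSCR1 the log2 fold changes were 1.31 at day 2, 0.72 at day 3 and 0.37 at day 5 (SE 0.14, adjusted p = 5.94e-06, 0.000263 and 0.0206), the last of them under the size threshold. RTP4, a chaperone for receptor transport, was called higher on all 3 days from an untreated mean of 0.256 TPM, and its log2 fold change peaked at 1.003 on day 3. RTP4 passed the filter through treated libraries alone.

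The OAS enzymes make 2′-5′-linked oligoadenylates, which switch on RNase L. OAS1 and OAS2 rose on all 3 days and OASL was not called. OAS1 stood at 7.39, 7.02 and 9.56 TPM in the untreated libraries, 89.1, 69.8 and 61.96 TPM at day 2, 53.7, 69.7 and 55.02 TPM at day 3 and 30.4, 32.4 and 36.7 TPM at day 5. The groups did not overlap with the untreated libraries, and day 5 lay under day 3. For OAS1 the log2 fold changes were 3.05 at day 2, 2.75 at day 3 and 1.93 at day 5 (SE 0.15, adjusted p = 1.07e-08, 2.69e-09 and 3.86e-08). OAS2 stood at 12.1, 12.3 and 14.9 TPM in the untreated libraries, 75.2, 74.96 and 79.5 TPM at day 2, 34.3, 49.4 and 40.4 TPM at day 3 and 20.8, 21.4 and 28.998 TPM at day 5. OAS2 was highest at day 2 and lower on each later day, with log2 fold changes of 2.46 at day 2, 1.58 at day 3 and 0.8 at day 5 (SE 0.15, adjusted p = 4.14e-08, 3.76e-07 and 0.000152). OAS1, OAS3 and OAS2 are neighbours on chromosome 12, at chr12:112906777-112933222, chr12:112938352-112973249 and chr12:112978395-113011723, but OAS3 stayed at or under 0.865 TPM. OASL, a catalytically inactive relative, had group means of 1.86 TPM untreated, 2.53 TPM at day 2, 2.07 TPM at day 3 and 2.29 TPM at day 5. Its log2 fold changes of 0.305, 0.102 and 0.197 did not pass the test, and after rescaling they were 0.41, 0.65 and 1.03, with days 3 and 5 called higher.

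Enzymes that act on nucleotides and RNA were highest at day 2. ISG20 is an exonuclease that degrades RNA. ISG20 stood at 30.1, 27.7 and 28.9 TPM in the untreated libraries, 137, 135 and 117 TPM at day 2, 69.3, 77.9 and 65.9 TPM at day 3 and 40.2, 49.2 and 51.3 TPM at day 5. The groups formed a falling series after day 2 and all stood above the untreated libraries. For ISG20 the log2 fold changes were 2.12 at day 2, 1.27 at day 3 and 0.67 at day 5 (SE 0.11, adjusted p = 1.16e-08, 1.55e-07 and 4.11e-05). RSAD2, or viperin, makes a chain-terminating nucleotide and rose from a mean of 0.791 TPM to 6.69, 6.06 and 3.35 TPM, with log2 fold changes of 2.095, 1.99 and 1.29. Its head-to-head neighbour CMPK2, a mitochondrial nucleotide kinase, was called higher at day 2 (log2 fold change 1.06), had 0.47 at day 3 and 0.03 at day 5, and had a highest group mean of 1.73 TPM. The 2 genes share 14 exon bases on opposite strands. CMPK2 passed the filter only through its day 2 libraries and so had to be higher there. MX1 and MX2 are dynamin-like GTPases that trap viral ribonucleoproteins. MX1 stood at 42.4, 44.3 and 41.1 TPM in the untreated libraries, 166, 181 and 192 TPM at day 2, 74.5, 106 and 76.9 TPM at day 3 and 45.9, 47.6 and 69.5 TPM at day 5. Day 2 stood apart from all other groups, and H8 and H12 were the highest libraries of days 3 and 5. For MX1 the log2 fold changes were 2.05 at day 2, 0.97 at day 3 and 0.32 at day 5 (SE 0.15, adjusted p = 3.09e-07, 5.61e-05 and 0.0694), and the day 5 value after rescaling was 1.52, which was called. MX2 stood at 6.799, 7.93 and 7.34 TPM in the untreated libraries, 25.003, 21.9 and 19.9 TPM at day 2, 8.01, 10.6 and 7.599 TPM at day 3 and 3.897, 4.63 and 6.23 TPM at day 5. MX2 was above the untreated libraries at day 2, overlapped them at day 3 and was below them at day 5. For MX2 the log2 fold changes were 1.48 at day 2, 0.21 at day 3 and -0.51 at day 5 (SE 0.16, adjusted p = 7.57e-06, 0.241 and 0.00797), and after rescaling 1.64, 0.96 and 0.53, so the direction at day 5 depended on the scaling. The day 5 call was also lost without H2, H10 or H11 (-0.465, -0.387 and -0.488). GBP1 was listed at 0 in 8 libraries and did not exceed 0.0867 TPM.

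In the ISG15 system, the modifier rose. The ligase TRIM25 was called lower than untreated at days 3 and 5 on the deposited scale only. ISG15 is joined to proteins by ligases that include HERC5 and is removed by USP18, which also restrains the interferon receptor. ISG15 stood at 10.2, 12.3 and 11.6 TPM in the untreated libraries, 120.1, 139.8 and 119.9 TPM at day 2, 106, 116 and 128 TPM at day 3 and 63.9, 87.8 and 73.7 TPM at day 5. Every treated library was above every untreated one. For ISG15 the log2 fold changes were 3.37 at day 2, 3.25 at day 3 and 2.62 at day 5 (SE 0.12, adjusted p = 4.41e-10, 4.88e-11 and 2.46e-10), and the mean at day 2 was 11.1 times the untreated mean. HERC5 stood at 8.85, 10.9 and 9.3002 TPM in the untreated libraries, 14.3, 14.1 and 16.1 TPM at day 2, 9.76, 10.1 and 9.55 TPM at day 3 and 6.07, 6.06 and 7.64 TPM at day 5. HERC5 was above the untreated libraries at day 2, overlapped them at day 3 and was below them at day 5. For HERC5 the log2 fold changes were 0.57 at day 2, 0.02 at day 3 and -0.497 at day 5 (SE 0.12, adjusted p = 0.00175, 0.877 and 0.0015), and after rescaling 0.76, 0.799 and 0.59. At day 5 HERC5 stopped just short of the size threshold on the deposited scale, and it was called lower when H1, H3 or H12 was left out (-0.553, -0.521 and -0.593). USP18 was called higher on all 3 days, from a mean of 0.189 TPM to 1.53 TPM at day 2. USP18 passed the filter only through its day 2 and day 3 libraries and so had to differ there. TRIM25, a ubiquitin and ISG15 ligase that activates RIG-I, did not rise. TRIM25 stood at 50.9, 52.97 and 49.6 TPM in the untreated libraries, 48.9, 52.4 and 51.4 TPM at day 2, 20.6, 27.5 and 20.98 TPM at day 3 and 11.3, 15.5 and 21.7 TPM at day 5. The untreated and day 2 libraries overlapped, and all libraries of days 3 and 5 were lower. For TRIM25 the log2 fold changes were -0.01 at day 2, -1.13 at day 3 and -1.65 at day 5 (SE 0.17, adjusted p = 0.975, 4.4e-05 and 7.81e-07), and after rescaling 0.22, -0.29 and -0.47, none of which was called. Days 3 and 5 of TRIM25 were still called lower than day 2 after rescaling. HERC6 did not exceed 0.0591 TPM.

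Sensors of nucleic acid and helicases had a median log2 difference of 0.68 from the untreated libraries at day 2. Of the 6 tested, 5 were called higher at day 2, 1 at day 3 and none at day 5, when 4 were called lower, a share near the 69.8% of all tested features. Of all tested features 8.04%, 7.59% and 7.73% were called higher. After rescaling, 6, 5 and 3 of the 6 genes were called higher and none lower, where 12.9%, 23.9% and 27.5% of all features were higher. IFI16, which binds DNA, was abundant before treatment. IFI16 stood at 118, 127 and 125 TPM in the untreated libraries, 194, 195 and 211 TPM at day 2, 148, 154 and 138 TPM at day 3 and 71.7, 83.3 and 98.98 TPM at day 5. It was above the untreated libraries at days 2 and 3 and below them at day 5. For IFI16 the log2 fold changes were 0.69 at day 2, 0.25 at day 3 and -0.55 at day 5 (SE 0.102, adjusted p = 0.000116, 0.039 and 0.000171), and after rescaling 0.92, 1.11 and 0.66, so the fall at day 5 was not a fall on that scale. Without H10 the day 5 value of IFI16 was -0.438 and was not called. IFIH1 encodes MDA5, a sensor of long double-stranded RNA. IFIH1 stood at 6.49, 7.29 and 5.36 TPM in the untreated libraries, 14.5, 15.03 and 17.5 TPM at day 2, 10.3, 11.7 and 9.14 TPM at day 3 and 5.75, 6.53 and 8.36 TPM at day 5. Days 2 and 3 were above the untreated libraries and day 5 overlapped them. For IFIH1 the log2 fold changes were 1.18 at day 2, 0.63 at day 3 and 0.09 at day 5 (SE 0.15, adjusted p = 3.19e-05, 0.0016 and 0.583), and the rescaled value at day 5 was 1.15, which was called. EIF2AK2 encodes PKR, a kinase that double-stranded RNA activates. EIF2AK2 stood at 18.3, 20.3 and 17.7 TPM in the untreated libraries, 34.5, 33.1 and 37.99 TPM at day 2, 17.5, 22.7 and 17.7 TPM at day 3 and 9.85, 10.3 and 15.9 TPM at day 5. Day 2 was highest, day 3 overlapped the untreated libraries and day 5 was lowest, with H12 above H10 and H11. For EIF2AK2 the log2 fold changes were 0.87 at day 2, 0.03 at day 3 and -0.63 at day 5 (SE 0.16, adjusted p = 0.000589, 0.864 and 0.00205), and after rescaling 1.08, 0.85 and 0.52. ZBP1 senses Z-form nucleic acid and can start cell death. ZBP1 stood at 59.4, 58.6 and 58.1 TPM in the untreated libraries, 90.2, 97.3 and 93.96 TPM at day 2, 54.2, 61.3 and 52.5 TPM at day 3 and 23.1, 32.1 and 38.5 TPM at day 5. It had the same order of groups, with log2 fold changes of 0.67 at day 2, -0.07 at day 3 and -0.92 at day 5 (SE 0.14, adjusted p = 0.00173, 0.657 and 2.88e-05) and rescaled values of 0.89, 0.78 and 0.28. HELZ2, a helicase and nuclear receptor coactivator, fell at days 3 and 5. HELZ2 stood at 9.22, 10.4 and 9.16 TPM in the untreated libraries, 12.5, 14.3 and 12.7 TPM at day 2, 3.199, 5.12 and 4.28 TPM at day 3 and 2.37, 2.39 and 3.51 TPM at day 5. Its day 2 libraries were above and its day 3 and day 5 libraries below the untreated ones. For HELZ2 the log2 fold changes were 0.42 at day 2, -1.04 at day 3 and -1.51 at day 5 (SE 0.16, adjusted p = 0.0422, 3.36e-05 and 6.41e-07), and after rescaling 0.61, -0.29 and -0.499, where day 2 was called higher and the later days were not called. DHX58, or LGP2, was called higher at day 2 (0.63), with 0.09 at day 3 and -0.24 at day 5. DDX60 and DDX60L did not reach 1 TPM.

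The PARP9 and DTX3L proteins work as a pair that attaches ubiquitin and ADP-ribose to proteins, and both genes rose from near 0 and stayed up. Both genes passed the filter through treated libraries alone. PARP9 had group means of 0.117 TPM untreated, 2.29 TPM at day 2, 2.62 TPM at day 3 and 2.51 TPM at day 5, and DTX3L 0.3903 TPM untreated, 3.06 TPM at day 2, 2.26 TPM at day 3 and 2.32 TPM at day 5. Their log2 fold changes at day 5 were 1.65 and 1.24, and neither was called between any of the treated days. They lie head to head on chromosome 3 and share 217 exon bases on opposite strands, so reads there cannot be told apart without strand. PARP14 stood at 1.6002, 1.96 and 1.94 TPM in the untreated libraries, 10.8, 9.43 and 10.5 TPM at day 2, 5.89, 7.08 and 6.52 TPM at day 3 and 3.51, 3.99 and 5.09 TPM at day 5. PARP14, a mono-ADP-ribosyltransferase, was highest at day 2 and fell on each later day, with log2 fold changes of 1.99 at day 2, 1.403 at day 3 and 0.87 at day 5 (SE 0.14, adjusted p = 1.32e-07, 5.24e-07 and 3.48e-05). PARP12 was called higher at day 2 alone (0.56), with 0.12 and -0.07 later, and after rescaling it was called higher on all 3 days, at 0.72, 0.81 and 0.92.

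Nuclear body and TRIM genes split. SP100 and SP110 belong to nuclear bodies that repress viral genomes. SP100 stood at 12.1, 10.7 and 11.03 TPM in the untreated libraries, 36.8, 43.5 and 41.3 TPM at day 2, 26.2, 28.2 and 25.6 TPM at day 3 and 18.8, 19.6 and 26.5 TPM at day 5. The treated libraries were all above the untreated ones, with log2 fold changes of 1.76 at day 2, 1.17 at day 3 and 0.86 at day 5 (SE 0.12, adjusted p = 1.99e-07, 1.41e-06 and 1.77e-05). SP110 stood at 5.93, 4.74 and 3.07 TPM in the untreated libraries, 12.1, 12.8 and 10.8 TPM at day 2, 7.76, 8.73 and 8.404 TPM at day 3 and 3.78, 4.02 and 5.59 TPM at day 5. SP110 was above the untreated libraries at days 2 and 3 and overlapped them at day 5. For SP110 the log2 fold changes were 1.25 at day 2, 0.77 at day 3 and -0.01 at day 5 (SE 0.18, adjusted p = 9.96e-05, 0.0014 and 0.959), and the day 5 value after rescaling was 0.98. TRIM14, an adaptor of mitochondrial antiviral signalling, fell. TRIM14 stood at 7.05, 9.402 and 8.56 TPM in the untreated libraries, 5.76, 6.47 and 6.67 TPM at day 2, 2.88, 3.36 and 2.35 TPM at day 3 and 1.802, 1.43 and 1.898 TPM at day 5. Its treated libraries were below the untreated ones on all 3 days. For TRIM14 the log2 fold changes were -0.35 at day 2, -1.27 at day 3 and -1.78 at day 5 (SE 0.14, adjusted p = 0.0601, 2.1e-06 and 4.62e-08), and after rescaling -0.14, -0.55 and -0.84, which made TRIM14 the only tested member called lower at days 3 and 5 on both scales. Its exons share 422 bases with NANS on the opposite strand. TRIM21, a cytosolic antibody receptor, had group means of 8.799 TPM untreated, 10.2 TPM at day 2, 11.8 TPM at day 3 and 9.61 TPM at day 5 and was not called on any day, although after rescaling its values were 0.399, 1.17 and 1.23, with days 3 and 5 called higher.

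The remaining 6 genes, of varied function, were all called higher at days 2 and 3, and 3 of them at day 5. Of all tested features 8.04%, 7.59% and 7.73% were called higher on these days. After rescaling all 6 genes were called higher on all 3 days, where 12.9%, 23.9% and 27.5% of all features were. XAF1 promotes apoptosis by opposing XIAP. It passed the filter through treated libraries alone. XAF1 stood at 0.107, 0.207 and 0.325 TPM in the untreated libraries, 9.79, 10.8 and 10.4 TPM at day 2, 9.31, 9.26 and 10.1 TPM at day 3 and 4.703, 5.95 and 6.76 TPM at day 5. It was far higher in each treated library than in any untreated one, with log2 fold changes of 3.23 at day 2, 3.13 at day 3 and 2.48 at day 5 (SE 0.13, adjusted p = 1.89e-09, 1.82e-10 and 9.69e-10). SAMD9 stood at 9.14, 11.2 and 9.43 TPM in the untreated libraries, 16.4, 14.6 and 18.2 TPM at day 2, 25.6, 22.8 and 28.1 TPM at day 3 and 13.9, 13.8 and 11.2 TPM at day 5. SAMD9, a restriction factor for poxviruses, was highest at day 3 and nearest to the untreated libraries at day 5. For SAMD9 the log2 fold changes were 0.67 at day 2, 1.28 at day 3 and 0.35 at day 5 (SE 0.13, adjusted p = 0.000809, 7.12e-07 and 0.0182), and day 3 was higher than day 2 by 0.61 (adjusted p = 0.000805). SAMD9L stood at 3.23, 3.75 and 2.55 TPM in the untreated libraries, 15.6, 15.5 and 16.95 TPM at day 2, 12.1, 14.4 and 14.01 TPM at day 3 and 4.89, 5.99 and 7.102 TPM at day 5. Its neighbour SAMD9L instead was highest at day 2, with log2 fold changes of 2.04 at day 2, 1.804 at day 3 and 0.74 at day 5 (SE 0.14, adjusted p = 1.71e-07, 8.8e-08 and 0.000247). NMI stood at 11.7, 10.6 and 10.9 TPM in the untreated libraries, 16.1, 17.9 and 19.99 TPM at day 2, 24.6, 26.3 and 24.3 TPM at day 3 and 18.3, 17.2 and 20.7 TPM at day 5. NMI, which binds STAT proteins, was highest at day 3 and stayed above the untreated libraries at day 5, with log2 fold changes of 0.65 at day 2, 1.11 at day 3 and 0.704 at day 5 (SE 0.11, adjusted p = 0.000289, 5.5e-07 and 2.87e-05). IFI35 is its binding partner. IFI35 stood at 23.4, 17.8 and 20.5 TPM in the untreated libraries, 49.1, 50.5 and 54.4 TPM at day 2, 39.3, 37.1 and 35.1 TPM at day 3 and 24.8, 29.3 and 26.4 TPM at day 5. IFI35 declined from day 2, with log2 fold changes of 1.28 at day 2, 0.83 at day 3 and 0.37 at day 5 (SE 0.11, adjusted p = 7.5e-07, 8.81e-06 and 0.00523), the last under the size threshold. EPSTI1 had group means of 2.51 TPM untreated, 8.81 TPM at day 2, 5.44 TPM at day 3 and 3.35 TPM at day 5 and was called higher at days 2 and 3.

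**Figure D3:**
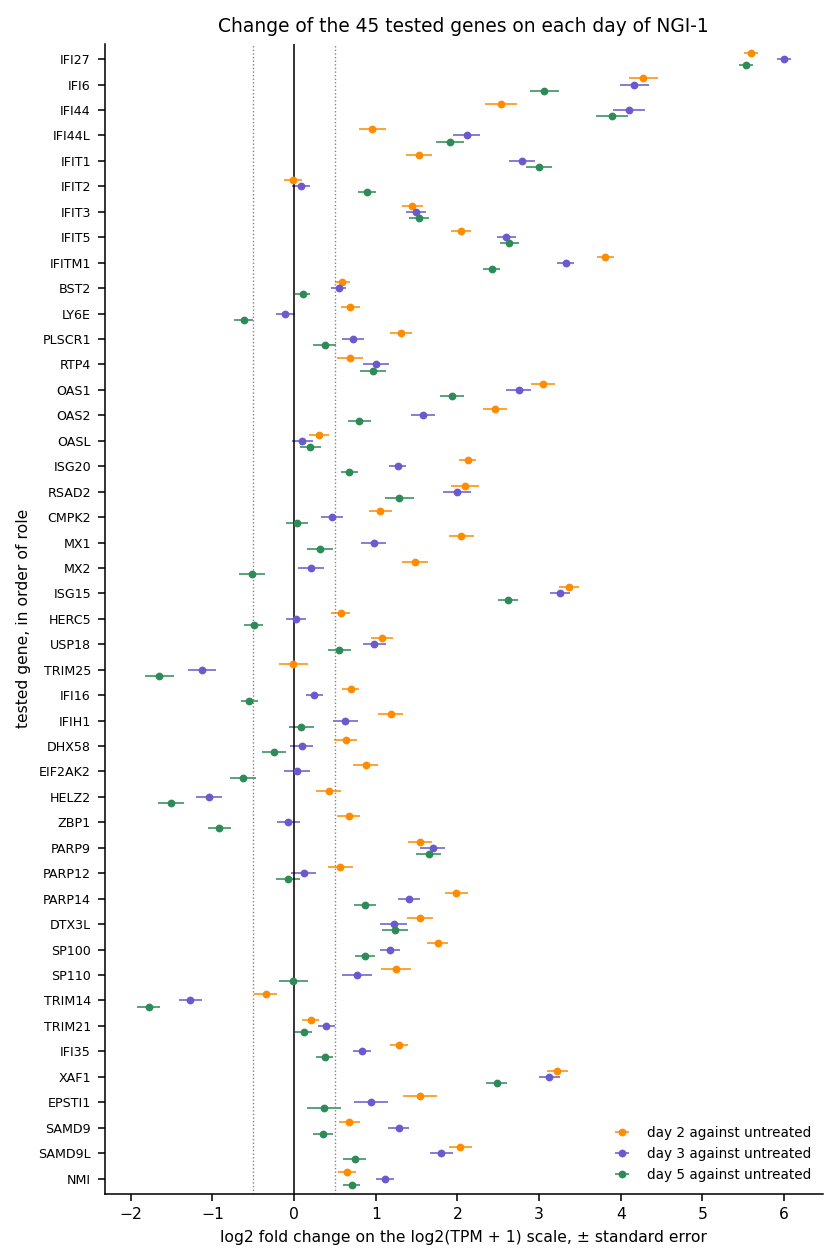
Log2 fold change of each of the 45 tested genes against the untreated libraries on the log2(TPM + 1) scale (x axis, points with standard error bars, n = 3 libraries per group), in order of role on the y axis, for day 2 (orange), day 3 (purple) and day 5 (green). Dotted lines mark the size threshold of 0.5. The points of day 2 lie to the right of those of day 5 for most genes, with the IFIT and IFI44 genes, PARP9, RTP4 and NMI as exceptions, and the TRIM14, TRIM25 and HELZ2 points of days 3 and 5 lie left of -1. Values are not rescaled, and after rescaling TRIM25 and HELZ2 were not called lower.

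The direct comparisons between treated days gave the timing. From day 2 to day 3, 5 of the 45 tested members were called higher (IFI44, IFI44L, IFIT1, IFIT5 and SAMD9) and 18 lower, where 3.22% of all tested features were called higher and 55.5% lower. From day 3 to day 5, IFIT2 alone was called higher and 22 members lower, where 0.67% of features were called higher and 13.1% lower. IFIT2 entered the test only through its day 5 libraries, so it had to be higher on that day. Day 5 against day 2 gave 5 members higher (IFI44, IFI44L, IFIT1, IFIT2 and IFIT5) and 30 lower, against 4.35% and 69.8% of all features. MX2 fell by 1.99 on the log2 scale from day 2 to day 5 (adjusted p = 1.47e-07), the steepest fall among the tested members. By group mean, 31 of the 45 peaked at day 2, 8 at day 3, 4 at day 5 and 2 (TRIM14 and TRIM25) before treatment. After rescaling 13 peaked at day 2, 18 at day 3 and 13 at day 5, and the comparisons gave 14 higher and 3 lower from day 2 to day 3, 1 and 5 from day 3 to day 5, and 14 and 9 for day 5 against day 2. Of all features on that scale, 14.3% were higher and 13.6% lower from day 2 to day 3, 4.43% and 2.03% from day 3 to day 5, and 19% and 18.1% for day 5 against day 2, so the share of members lower in the last comparison was near that of all features. The count of members that declined after day 2 thus depended on the scaling, while IFI44, IFI44L, IFIT1 and IFIT5 were above their day 2 level on both scales.

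**Figure D4:**
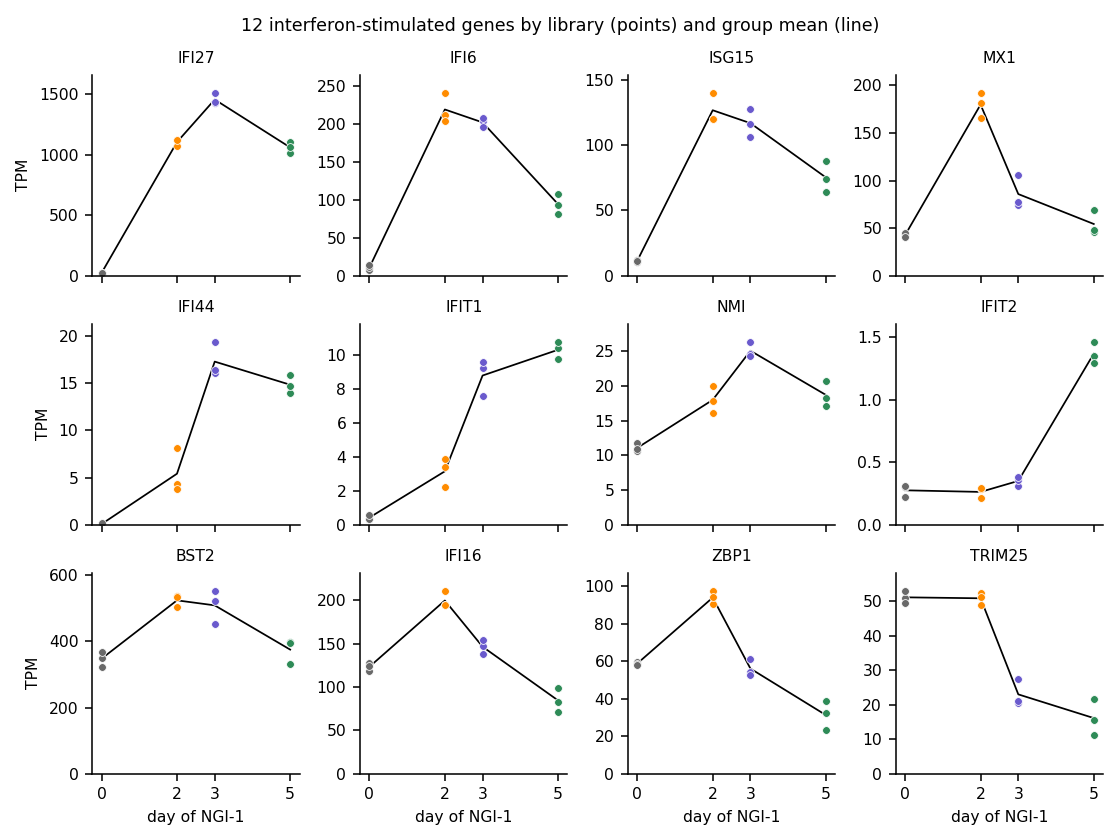
TPM of 12 members (y axes from 0, one panel per gene) against the day of NGI-1, with 1 point per library and a line through the group means. IFI27, IFI6, ISG15 and MX1 rose at day 2, IFI44 and NMI were highest at day 3 and IFIT1 at day 5, IFIT2 rose at day 5 alone, BST2, IFI16 and ZBP1 rose and came back to or under their first level, and TRIM25 dropped at day 3. The panels show the deposited scale, and on the rescaled one IFI16 and ZBP1 did not fall under their first level.

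Members were called higher at day 2 from low and from high starting levels. Of the 17 members with an untreated mean of 10 TPM or more, 16 were called higher at day 2, 12 at day 3 and 8 at day 5, and 0, 1 and 5 lower. Of the 17 members with 1 to under 10 TPM, 13, 9 and 5 were called higher and 0, 2 and 3 lower. Of the 19 under 1 TPM, 11 were tested and 10, 9 and 10 were called higher, in a class that the filter admits through treated libraries. Of all tested features, 8.04%, 7.59% and 7.73% were called higher on the 3 days and 23.2%, 61.5% and 69.8% lower. Shares of all features within each class were not computed. Among all tested features ranked by log2 fold change, 19 members stood in the 100 largest rises at day 2, 13 at day 3 and 10 at day 5. Members were 45 of the 11939 features ranked. IFI27 was the largest rise of all at day 2 and the second largest at days 3 and 5.

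Genes upstream of the members were looked at through a list of 63 genes of the pathway, of which 34 were tested. None of its 22 interferon genes passed the filter, and IFNB1 was listed at 0 in 9 libraries, with 0.218 TPM in H6 as its highest value. At day 2, 7 of the 34 were called higher and 4 lower. At day 3 these counts were 5 and 22, and at day 5 they were 4 and 26. The counts of lower genes at days 3 and 5 were near the shares of all tested features, 61.5% and 69.8%, and those of higher genes stand beside 8.04%, 7.59% and 7.73%. After rescaling the counts were 9 and 1, 8 and 6, and 11 and 9, where 12.9%, 23.9% and 27.5% of all features were higher and 11.4%, 24.2% and 26.9% lower. The receptor chains for type I interferon fell. IFNAR1 stood at 68.2, 68.4 and 62.2 TPM in the untreated libraries, 46.5, 51.2 and 46.6 TPM at day 2, 20.8, 34.2 and 21.7 TPM at day 3 and 13.4, 16.1 and 24.1 TPM at day 5. All treated libraries were below every untreated one. For IFNAR1 the log2 fold changes were -0.45 at day 2, -1.37 at day 3 and -1.87 at day 5 (SE 0.195, adjusted p = 0.0724, 2e-05 and 6.48e-07), and after rescaling -0.22, -0.53 and -0.69, with days 3 and 5 called. IFNAR2 stood at 96.2, 116 and 102 TPM in the untreated libraries, 82.9, 79.6 and 87.4 TPM at day 2, 41.4, 49.7 and 36.8 TPM at day 3 and 18.3, 21.2 and 24.1 TPM at day 5. IFNAR2 was below the untreated libraries on all days, with log2 fold changes of -0.32 at day 2, -1.28 at day 3 and -2.26 at day 5 (SE 0.12, adjusted p = 0.0473, 5.55e-07 and 1.19e-09), of which that at day 2 was under the size threshold, and rescaled values of -0.09, -0.43 and -1.06, of which only that at day 5 was called. IFNGR1, a chain of the interferon-γ receptor, instead rose. IFNGR1 stood at 17.8, 20.6 and 17.9996 TPM in the untreated libraries, 35.6, 32.4 and 33.7 TPM at day 2, 32.4, 34.8 and 30.5 TPM at day 3 and 26.97, 29.7 and 34.1 TPM at day 5. For IFNGR1 the log2 fold changes were 0.82 at day 2, 0.77 at day 3 and 0.66 at day 5 (SE 0.105, adjusted p = 3.43e-05, 1.46e-05 and 4.56e-05).

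IRF9 rose on all 3 days, and on the deposited scale STAT2 was higher at day 2 alone. IRF9 stood at 18.3, 11.1 and 16.7 TPM in the untreated libraries, 71.8, 63.96 and 68.8 TPM at day 2, 81.7, 74.5 and 67.1 TPM at day 3 and 62.02, 65.0003 and 61.97 TPM at day 5. IRF9, the DNA-binding subunit of ISGF3, stayed near its day 2 level, with log2 fold changes of 2.11 at day 2, 2.23 at day 3 and 1.996 at day 5 (SE 0.14, adjusted p = 1.37e-07, 1.22e-08 and 1.65e-08). STAT2 stood at 15.9, 16.1 and 16.3 TPM in the untreated libraries, 25.9, 28.3 and 26.3 TPM at day 2, 11.3, 17.8 and 12.3 TPM at day 3 and 11.1, 12.3 and 18.5 TPM at day 5. STAT2 was above the untreated libraries at day 2 only and overlapped them at days 3 and 5, with H8 and H12 the highest of their groups. For STAT2 the log2 fold changes were 0.7 at day 2, -0.24 at day 3 and -0.23 at day 5 (SE 0.18, adjusted p = 0.00577, 0.228 and 0.241), and after rescaling 0.91, 0.57 and 0.92. IRF7, which drives interferon-α genes and is itself an interferon target, rose from low levels. IRF7 stood at 1.79, 1.398 and 3.07 TPM in the untreated libraries, 14.9, 18.3 and 15.7 TPM at day 2, 15.2, 16.5 and 15.1 TPM at day 3 and 10.5, 11.5 and 13.3 TPM at day 5. For IRF7 the log2 fold changes were 2.52 at day 2, 2.46 at day 3 and 2.08 at day 5 (SE 0.17, adjusted p = 1.32e-07, 2.45e-08 and 6.03e-08). The RNA sensor RIG-I, listed under its older symbol DDX58, had 0.641, 0.504 and 0.452 TPM untreated, 1.21, 1.399 and 1.16 TPM at day 2, 1.85, 1.69 and 1.47 TPM at day 3 and 0.761, 0.847 and 0.844 TPM at day 5. It was called higher at days 2 and 3 (0.56 and 0.799) but not at day 5 (0.25, adjusted p = 0.0599). RIG-I passed the filter only through its day 2 and day 3 libraries and so had to differ there. Its adaptor MAVS fell on all 3 days, with log2 fold changes of -0.63 at day 2, -2.23 at day 3 and -2.44 at day 5 (SE 0.17, adjusted p = 0.00889, 6.45e-08 and 1.33e-08) and rescaled values of -0.403, -1.48 and -1.43, the first of which was not called. The DNA sensor CGAS was called lower on all 3 days on both scales, with -0.99 at day 2, -1.99 at day 3 and -2.61 at day 5 (SE 0.14, adjusted p = 6.55e-05, 2.23e-08 and 7.8e-10) and rescaled values of -0.75, -1.21 and -1.57.

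**Figure D5:**
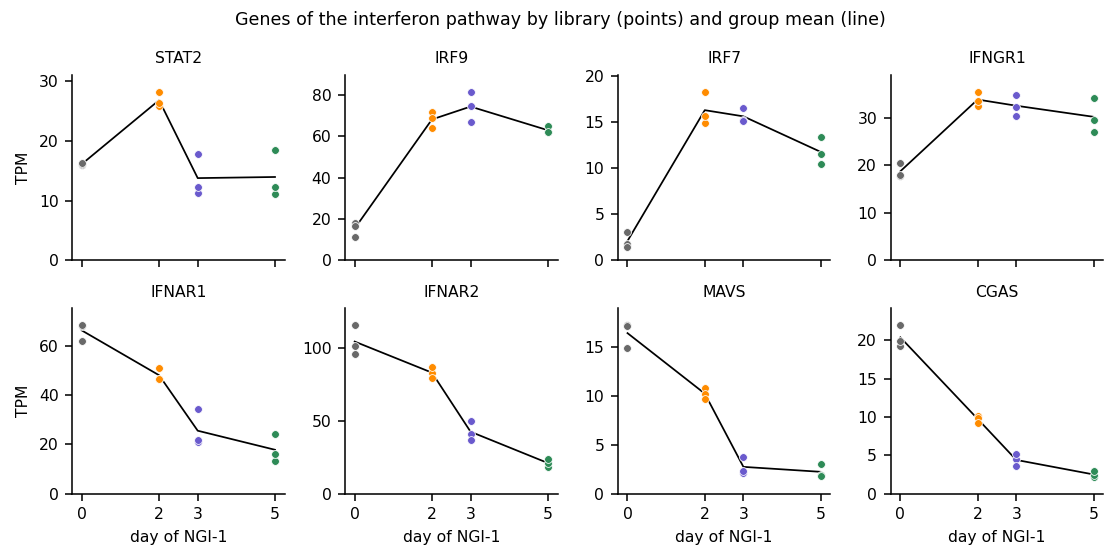
TPM of 8 genes of the interferon pathway (y axes from 0, one panel per gene) against the day of NGI-1, with 1 point per library and a line through the group means, on the deposited scale. IRF9, IRF7 and IFNGR1 stayed above their untreated libraries on all days, STAT2 was above at day 2 only, and IFNAR1, IFNAR2, MAVS and CGAS were lower at days 3 and 5.

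A list of 16 genes taken to lean toward interferon-γ was also looked at, and which signal lay behind their changes was not tested. Of these genes, 8 passed the filter. At day 2, 4 were called higher, and at days 3 and 5, 5 were called higher and 2 (ICAM1 and WARS1) lower, or none lower after rescaling. Of all tested features 8.04%, 7.59% and 7.73% were called higher on the 3 days, and 61.5% and 69.8% lower at days 3 and 5. HLA-DRA, a chain of an MHC class II molecule, rose from a mean of 1.82 TPM to 5.23, 7.07 and 10.2 TPM, with log2 fold changes of 1.16 at day 2, 1.53 at day 3 and 2.004 at day 5 (SE 0.18, adjusted p = 0.0002, 4.15e-06 and 1.77e-07). The chemokine CXCL10 reached 2.46, 1.49 and 1.08 TPM at day 5 from an untreated mean of 0.0212 TPM, and day 5 was higher than day 3 by 0.82 (adjusted p = 0.00408). CXCL10 passed the filter only through its day 5 libraries and so had to differ there. CD74, GBP2 and GBP3 were also under 1 TPM in every untreated library and passed through treated libraries alone. With a minimum of 5 TPM, 1 gene of this list was called higher on each day, so the counts above depended on the filter. Of 17 genes of MHC class I presentation, all tested, 5, 3 and 3 were called higher on the 3 days and 2, 8 and 10 lower, and after rescaling 7, 7 and 7 higher and 1, 0 and 3 lower. The deposited counts stand beside 8.04%, 7.59% and 7.73% of all features higher and 23.2%, 61.5% and 69.8% lower, and the rescaled ones beside 12.9%, 23.9% and 27.5% higher and 11.4%, 24.2% and 26.9% lower. B2M rose on all 3 days, with log2 fold changes of 0.96 at day 2, 1.76 at day 3 and 1.96 at day 5 (SE 0.071, adjusted p = 2.62e-07, 1.1e-10 and 2.29e-11), and HLA-B and HLA-F did too, while the immunoproteasome subunit PSMB8 fell, with log2 fold changes of -0.78 at day 2, -1.197 at day 3 and -1.76 at day 5 (SE 0.091, adjusted p = 1.5e-05, 6.06e-08 and 7.14e-10) and rescaled values of -0.55, -0.34 and -0.56, of which that at day 3 was not called.

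The labelled cell type was checked against marker genes, whose part in the members' changes was not tested. All 10 plasma cell markers reached 1 TPM, and their summed level was 12100 to 14300 TPM untreated, 19200 to 22400 at day 2, 25600 to 28500 at day 3 and 20000 to 21300 at day 5. Most of this sum was JCHAIN, with group means of 9697 TPM untreated, 16920 TPM at day 2, 23660 TPM at day 3 and 17340 TPM at day 5. Of the 10 markers, 5 were called higher and 1 lower at day 2, 3 and 4 at day 3, and 2 (JCHAIN and TNFRSF17) and 6 at day 5, SDC1, XBP1 and CD38 among the last. Of all tested features 8.04%, 7.59% and 7.73% were called higher and 23.2%, 61.5% and 69.8% lower. After rescaling 6, 6 and 4 markers were higher and 0, 1 and 2 lower. On that scale 12.9%, 23.9% and 27.5% of all features were higher and 11.4%, 24.2% and 26.9% lower. The median log2 fold change of the 10 markers was 0.639, -0.152 and -1.075 on these days without rescaling. Of 7 macrophage and monocyte markers only CD68 reached 1 TPM, CD163 was listed at 0 in every library, and the summed level was 5.44 to 5.93 TPM untreated and 0.662 to 0.82 TPM at day 5. Of 5 plasmacytoid dendritic cell markers, CLEC4C and LILRA4 were listed at 0 in every library and only TCF4 reached 1 TPM, with a summed level of 5.7 to 6.48 TPM untreated and 1.94 to 2.21 TPM at day 5. Of 7 T and NK cell markers, CD3E and NCAM1 reached 1 TPM and CD3D was listed at 0. The summed level was 26 to 28.6 TPM untreated, 23.9 to 27.2 at day 2, 12.6 to 19.8 at day 3 and 12.4 to 19.6 at day 5. NCAM1 made up most of it and was called lower at days 3 and 5 (-1.25 and -1.13). CD3E instead stood at 2.75, 2.93 and 3.32 TPM untreated, 6.78, 7.14 and 5.06 TPM at day 2, 4.92, 7.22 and 5.23 TPM at day 3 and 3.3997, 3.89 and 4.74 TPM at day 5 and was called higher at days 2 and 3 (0.86 and 0.75). Of 6 stromal and endothelial markers, only PECAM1 reached 1 TPM, COL1A2 and VWF were listed at 0, and the sum was 5.09 to 6.37 TPM untreated and 1.27 to 2.42 TPM at day 5.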

How the data were processed

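Total RNA of 12 MM1S libraries was measured by paired-end RNA-seq. The authors deposited log2(TPM + 1) values. Their processing notes name FastQC, Trimmomatic, STAR, Salmon and hg38, while versions, annotation and strand setting are not given in the sources used here. Here the values were turned back to TPM for levels and tested as deposited, with a pseudocount of 1. Features with at least 1 TPM in at least 3 libraries were kept (11939 of 59276). limma 3.58.1 in R 4.3.3 fitted 1 mean per group over all 4 groups with a mean-variance trend, with two-sided p-values adjusted per comparison (Benjamini-Hochberg). The procedure was tested on simulated data. TPM keeps no counts, so depth gives no interval. The members and lists were chosen with earlier results of these data known. Values in every library are given for members called higher on at least 1 day with a group mean of at least 10 TPM and for the 3 with the lowest log2 fold change at day 5, while other members are given by group means. IFIT2 and the promoters shown were chosen after their values were seen. Values of 1 pathway gene that the counts include are not reported here. Promoter sequences came from RefSeq (GRCh38.p14) and positions from GENCODE 29. Alternatives tried were a filter of 5 TPM or none, 0.1 as pseudocount, rescaling, leaving out the 20 most abundant features, fits of 2 groups, no trend, a fold threshold of 1, each library left out and, chosen after seeing the data, H8 and H12 left out together. Figures were drawn with matplotlib 3.10.9.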

Additional observations from a re-analysis of the deposited data

Results flagged for a closer look

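In 5 members the comparison with the untreated libraries was called higher at day 2 and lower at day 5 on the deposited scale. The difference between these effects is the comparison of day 5 with day 2, tested with limma in the same fit. It was -1.24 on the log2 scale for IFI16 (adjusted p = 1.81e-07), -1.99 for MX2 (adjusted p = 1.47e-07), -1.31 for LY6E (adjusted p = 3.96e-07), -1.502 for EIF2AK2 (adjusted p = 1.39e-06) and -1.58 for ZBP1 (adjusted p = 3.26e-07). After rescaling the same differences were -0.26, -1.11, -0.32, -0.56 and -0.61, and those of IFI16 and LY6E were no longer called. Without the 20 most abundant features, the day 5 values against the untreated libraries were -0.231 for IFI16, -0.25 for MX2, -0.298 for LY6E and -0.332 for EIF2AK2, none of them called lower. ZBP1 was still called lower at day 5 under that alternative. Over all tested features the median difference of day 5 from day 2 was -0.832, and that of the 45 members was -0.91. In this comparison 5 members were higher and 30 lower, where 4.35% of all tested features were higher and 69.8% lower, so the share of lower members was near that of all features.

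No group of 3 libraries was tested for single libraries that stand apart.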

How the results depend on the processing

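The 24 counts of called genes and 135 fold changes of single members were recomputed under each alternative. The fits of 2 groups, of no filter and of no trend left all counts within 1.5 times and kept every single call. No paired analysis was possible because the labels carry no replicate numbers. TPM without counts sets no limit of detection, and members near 0 were tested on a scale that shrinks their changes. The causes of the shifts below were not tested.

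With a fold threshold of 1, 14 members were higher and 3 lower at day 5 against day 0, 3 higher and 4 lower for day 3 against day 2, 0 higher and 2 lower for day 5 against day 3, and 2 higher for day 5 against day 2. The pathway list then had 3 higher and 0 lower at day 2, 3 higher and 13 lower at day 3 and 2 higher at day 5, and the interferon-γ list 2 higher at day 2, 2 higher and 1 lower at day 3, and 3 higher and 1 lower at day 5. With a minimum of 5 TPM, 3 members were higher for day 5 against day 2 and 0 for day 5 against day 3, and 1 gene of the interferon-γ list on each day.

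After rescaling, 39 members were higher and 1 lower at day 5, 1 was lower at day 3, 14 were higher and 3 lower for day 3 against day 2, 5 were lower for day 5 against day 3, and 14 were higher and 9 lower for day 5 against day 2. The pathway list had 1 lower at day 2, 8 higher and 6 lower at day 3, and 11 higher and 9 lower at day 5, and the interferon-γ list had 0 lower at days 3 and 5. Against day 0, the log2 fold changes that turned sign were then 0.027 for IFIT2 and 0.219 for TRIM25 at day 2, 0.755 for LY6E and 0.782 for ZBP1 at day 3, and at day 5 0.399 for DHX58, 0.52 for EIF2AK2, 0.593 for HERC5, 0.664 for IFI16, 0.598 for LY6E, 0.533 for MX2, 0.916 for PARP12, 0.985 for SP110 and 0.28 for ZBP1. Of the 135 single values, 102 kept their call, 24 gained one, 5 lost it and 4 turned from lower to higher.

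Without the 20 most abundant features, 4 members were lower at day 5, 11 were lower for day 3 against day 2, and 2 genes of the pathway list were lower at day 2. The values that turned sign were 0.006 for IFIT2 and 0.085 for TRIM25 at day 2, 0.145 for LY6E and 0.18 for ZBP1 at day 3, and 0.197 for PARP12 and 0.269 for SP110 at day 5.

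Without H8 and H12, an alternative chosen after seeing the data, 3 genes of the interferon-γ list were higher at day 3, and values near 0 turned sign, to -0.027 for DHX58, -0.084 for EIF2AK2 and 0 for HERC5 at day 3 and -0.042 for IFIH1 at day 5. Leaving out each library in turn gave 39 to 39 members higher at day 2, 29 to 31 at day 3 and 23 to 24 at day 5, and 15 to 25 lower for day 5 against day 3. The interferon-γ list then had 3 to 5 higher at day 3, the 3 without H8. Values that changed sign ranged from -0.047 to 0.015 for IFIT2 and -0.029 to 0.021 for TRIM25 at day 2, from -0.027 to 0.156 for DHX58, -0.084 to 0.093 for EIF2AK2 and -0.035 to 0.103 for HERC5 at day 3, and from -0.011 to 0.116 for CMPK2, -0.042 to 0.194 for IFIH1, -0.206 to 0.04 for PARP12 and -0.221 to 0.163 for SP110 at day 5. None of these single values was called in the full fit.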
